A study of Mus musculus with 8 samples.

Results

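Transcripts of collagens, laminins and their partners in the basement membrane were examined in mouse ovarian follicles. Members were all genes of the deposited FPKM table whose symbols follow the pattern of a numbered collagen chain (Col, number, a, number) or a laminin chain (Lama, Lamb or Lamc with a number), together with Nid1, Nid2, Hspg2, Fn1, Agrn and Sparc. This gave 61 of 55157 genes. Tests covered the 38 members whose mean level reached 1 FPKM, and the other 23 lay below it. The members comprised 11 fibrillar collagens, 6 type IV collagens, 11 laminins, 8 linkers and matricellular genes and 25 other collagens, and of these 7, 5, 8, 8 and 10 were tested.

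The samples were type 7-8 follicles from the ovaries of Kunming mice, an outbred stock, at postnatal day 21. All animals had received pregnant mare serum gonadotropin (PMSG, which acts on the receptor for follicle-stimulating hormone) 24 h earlier. Control samples received it with normal saline and melatonin samples with melatonin, with 4 libraries in each group. Whether the numbered replicates stand for different mice or for pooled material is not stated in the labels. The p-values therefore refer to the spread among these 8 libraries, part of which may be technical. The design compares melatonin with saline in follicles that were all primed with the gonadotropin.

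Each ovarian follicle is enclosed by a basement membrane that separates the granulosa cells and the oocyte from the vascularised theca, and this sheet is remodelled as the follicle grows. A basement membrane is built from a laminin network, in which an alpha, a beta and a gamma chain form a trimer, and a network of type IV collagen, tied together by nidogens and heparan sulfate proteoglycans. Fibrillar collagens instead form the fibres of the theca and stroma around the follicle. Collagen chains assemble into triple helices inside the cell before they are secreted.

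The genes for type IV collagen are arranged in pairs that lie head to head and are transcribed in opposite directions. Promoters of the pairs Col4a5 with Col4a6 and Col4a1 with Col4a2 are shown, since the levels and ratios of these 4 chains carry much of the results on type IV collagen. They run from 250 bases before to 50 bases after the start site in RefSeq's annotation of GRCm38.p6. Capitals mark the GC box (GGGCGG or its reverse complement CCGCCC) and the CCAAT box (CCAAT or ATTGG), searched on both strands. Col4a5 lies at chrX:141475169-141475468 on the plus strand and Col4a6 at chrX:141474027-141474326 on the minus strand.
Col4a5 promoter: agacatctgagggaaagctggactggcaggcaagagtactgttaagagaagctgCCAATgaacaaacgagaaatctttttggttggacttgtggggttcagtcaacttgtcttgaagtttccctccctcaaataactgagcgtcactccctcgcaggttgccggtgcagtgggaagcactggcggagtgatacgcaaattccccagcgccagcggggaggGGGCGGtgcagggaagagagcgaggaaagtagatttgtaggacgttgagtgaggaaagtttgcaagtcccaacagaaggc
Col4a6 promoter: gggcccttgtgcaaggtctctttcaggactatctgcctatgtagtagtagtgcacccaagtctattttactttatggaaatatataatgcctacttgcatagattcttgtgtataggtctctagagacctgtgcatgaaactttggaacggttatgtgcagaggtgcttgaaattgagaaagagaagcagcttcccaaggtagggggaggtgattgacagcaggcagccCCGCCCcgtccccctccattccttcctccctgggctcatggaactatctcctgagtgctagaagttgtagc
Col4a1 lies at chr8:11312777-11313076 on the minus strand and Col4a2 at chr8:11312555-11312854 on the plus strand.
Col4a1 promoter: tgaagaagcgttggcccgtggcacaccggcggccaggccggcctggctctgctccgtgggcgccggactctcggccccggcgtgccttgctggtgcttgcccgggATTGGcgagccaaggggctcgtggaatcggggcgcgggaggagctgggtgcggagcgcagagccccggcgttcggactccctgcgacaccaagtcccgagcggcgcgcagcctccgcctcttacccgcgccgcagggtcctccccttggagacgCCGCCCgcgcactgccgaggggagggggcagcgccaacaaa
Col4a2 promoter: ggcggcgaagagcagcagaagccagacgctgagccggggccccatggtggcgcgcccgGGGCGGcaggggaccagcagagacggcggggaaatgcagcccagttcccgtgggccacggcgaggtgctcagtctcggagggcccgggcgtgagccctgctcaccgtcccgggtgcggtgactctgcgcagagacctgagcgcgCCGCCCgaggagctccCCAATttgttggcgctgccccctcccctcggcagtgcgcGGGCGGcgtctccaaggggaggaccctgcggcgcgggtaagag
Start sites of Col4a5 and Col4a6 lie 1343 bases apart, and those of Col4a1 and Col4a2 lie 21 bases apart with the transcripts overlapping, so the windows of the latter pair share sequence. GC content of the windows was 52.7% for Col4a5, 48.3% for Col4a6, 74% for Col4a1 and 73.7% for Col4a2. The GC box occurred once in the Col4a5, Col4a6 and Col4a1 windows and 3 times in that of Col4a2, and the CCAAT box once in each except Col4a6. The GC box of the Col4a1 window and the last of the Col4a2 window are the same site, read on opposite strands. None of the 4 windows held TATAAA or TTTATA. Over all 32851 promoter windows of this length, 35.7% held a GC box, 37.4% a CCAAT box and 13.6% a TATA box. The marked motifs did not overlap each other in these windows, and a match describes letters only.

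The fragments behind the FPKM values numbered 17451110 to 22034310 in the control and 18553187 to 23649202 in the melatonin libraries, as recovered from the FPKM steps, and tested members had 72 to 31008 fragments per library. Granulosa markers were abundant, with a summed level over 7 genes of 6595 to 8214 FPKM (control) and 5690.02 to 6284 FPKM (melatonin), and the 7 oocyte markers summed to 288 to 456 FPKM (control) and 274 to 361 FPKM (melatonin). The granulosa sums did not overlap between the groups, and all 7 genes had a log2 fold change below 0. Inha made up most of these sums, with 5883 to 7333 FPKM (control) and 4985 to 5646 FPKM (melatonin). Of the 7, Inha was the only 1 whose groups did not overlap. Sums of the 7 surface epithelium markers did not overlap either, at 53.4 to 82.4 FPKM (control) and 43.7 to 51.97 FPKM (melatonin). The part of these markers in the values of the members was not tested. Over all 14738 genes tested, 0 had an adjusted p under 0.05 by limma (Benjamini-Hochberg), 2821 had an unadjusted p under 0.05, and limma-voom on recovered fragments also called 0, with 2682 at an unadjusted p under 0.05. In these whole-follicle libraries, fewer cells of a type and less RNA per cell cannot be told apart.

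No member passed the threshold, and adjusted p-values ran from 0.137 to 0.999. Mean levels were higher with melatonin in all 5 tested type IV chains, in the fibrillar chains Col11a1 and Col27a1 and in Col6a4, Col18a1 and Col28a1, and were lower in the stromal fibrillar chains Col1a1, Col1a2 and Col3a1 and in Fn1, none past the threshold. Of the 38 members, 8 had an unadjusted p under 0.05, or 21.1%, against 19.1% of all genes tested, which is near the background. Of these, 7 were higher (18.4%, against 9.4% of all genes) and 1 was lower (2.63%, against 9.74%), and the split between directions was not tested. The 4 melatonin values lay entirely above the 4 control values in 2 members, Col4a6 and Col18a1, and entirely below them in 1, Lama4, where 5.79% and 5.94% of all genes tested did so. The median log2 fold change was -0.0058 over the members and -0.0099 over all genes tested, and 18 members were above 0 and 20 below.

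**Figure D1:**
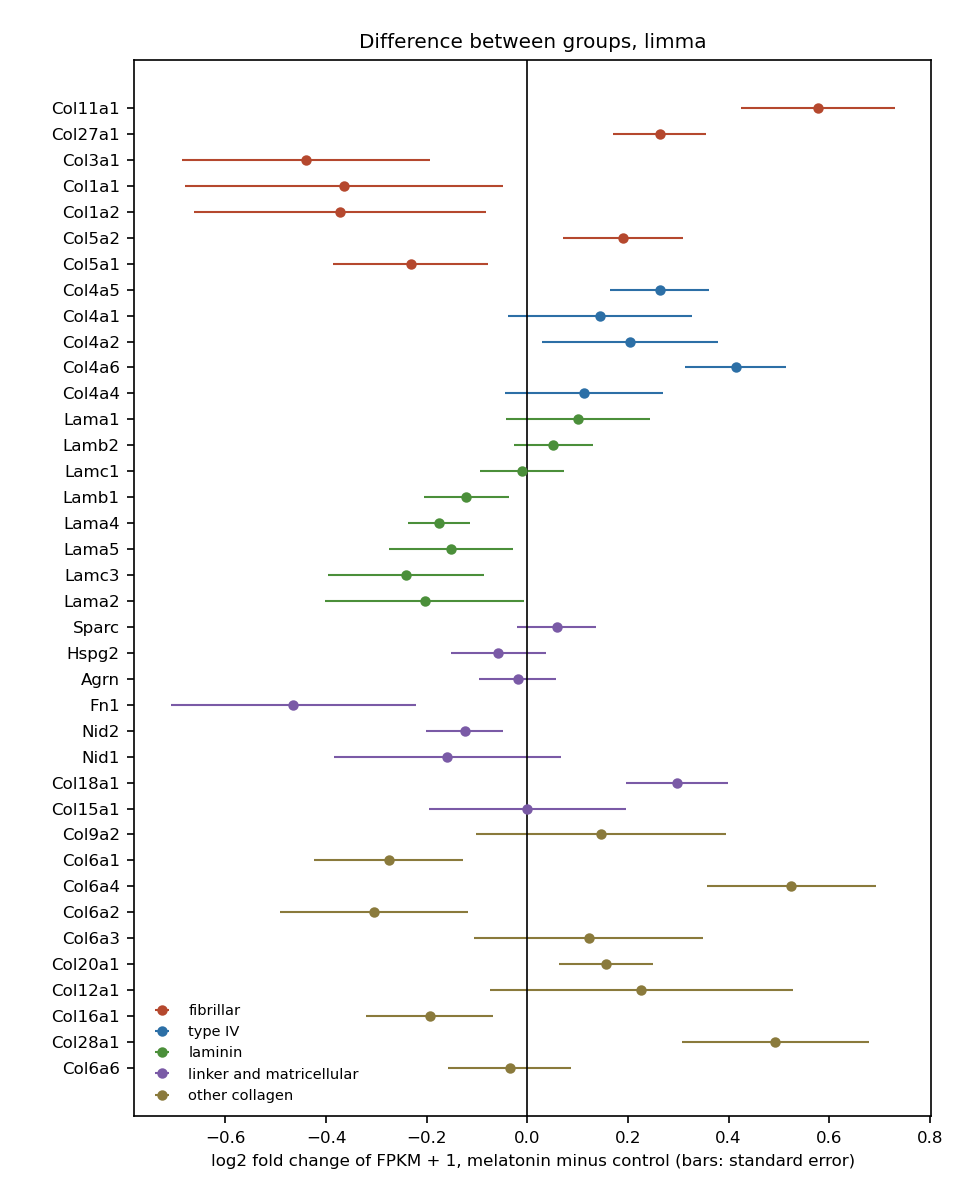
Log2 fold change of FPKM + 1 (melatonin minus control, horizontal axis) with its standard error for the 38 tested members, coloured by class, with 4 libraries per group. All 5 type IV chains lie above 0, while the fibrillar chains run from -0.44 for Col3a1 to 0.58 for Col11a1.

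The type IV collagen chains had the most uniform direction. Their median log2 fold change was 0.20, against -0.0099 over all genes tested, with 5 of 5 tested chains above 0 where 47.5% of all genes were. The chains are not independent of each other, since head-to-head partners varied together over the libraries. With 1 library left out, the lowest values were -0.012 for Col4a4 and 0.022 for Col4a1. In mammals these 6 chains form trimers in which Col4a1 joins Col4a2, Col4a5 joins Col4a6, and Col4a3 joins Col4a4 and Col4a5. Values are listed in replicate order, 1 to 4, in each group.

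Col4a6 (chromosome X, 141165403 to 141474076 in mm10) had 12.3, 13.1, 11.6 and 12.3 FPKM in the control and 18.997, 17.5, 13.3 and 17.8 FPKM in the melatonin libraries. All melatonin libraries were above all control libraries, although melatonin replicate 3 was above the highest control by a small margin (0.41 ± 0.10 SE on the log2 scale, limma adjusted p = 0.137). Its partner Col4a5 (chromosome X, 141475385 to 141689234 in mm10) had 36.05, 36.9, 33.4 and 36.4 FPKM in the control and 47.5, 44.8, 34.5 and 46.5 FPKM in the melatonin libraries. Melatonin replicates 1, 2 and 4 were above every control library, and replicate 3 lay within the control range (0.26 ± 0.10 SE on the log2 scale, limma adjusted p = 0.213).

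Col4a1 had 32.7, 36.8, 21.5 and 20.9 FPKM in the control and 34.5, 31.1, 27.8 and 27.5 FPKM in the melatonin libraries. Col4a2 had 25.6, 29.4, 17.3 and 17.6 FPKM in the control and 29.02, 27.5, 23.5 and 22.2 FPKM in the melatonin libraries. For both genes the groups overlapped, control replicates 1 and 2 were near the melatonin values, and control replicates 3 and 4 were the lowest libraries (0.14 ± 0.18 SE on the log2 scale, limma adjusted p = 0.694 for Col4a1 and 0.20 ± 0.17 SE on the log2 scale, limma adjusted p = 0.543 for Col4a2). Leaving out control replicate 2 gave 0.29 for Col4a1 and 0.34 for Col4a2. The lowest values with 1 library left out were 0.022 for Col4a1, without control replicate 4, and 0.10 for Col4a2, without control replicate 3.

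Col4a4, a chain best known from the kidney filter, had 1.66, 1.84, 1.82 and 0.958 FPKM in the control and 2.34, 1.30, 1.65 and 1.79 FPKM in the melatonin libraries, with overlapping groups (0.11 ± 0.16 SE on the log2 scale, limma adjusted p = 0.723). Col4a3 was below the filter at 0.773 ± 0.218 against 0.955 ± 0.256 FPKM. Col4a5 and Col4a6 together made up 42.04 to 54.9% (control) and 46.9 to 55.1% (melatonin) of the summed type IV FPKM, and Col4a3 and Col4a4 1.61 to 3.06% (control) and 1.57 to 2.68% (melatonin). FPKM are divided by a gene length, which the recovered fragments match to the combined annotated exons of a gene. These shares therefore compare levels per annotated length.

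Head-to-head partners varied less in their ratio than in their levels. The ratio of Col4a1 to Col4a2 was 1.28, 1.25, 1.24 and 1.18 in the control and 1.19, 1.13, 1.18 and 1.24 in the melatonin libraries, although the level of Col4a1 itself varied 1.76-fold over the 8 libraries (two-sided exact permutation p = 0.114, adjusted p = 0.686 over the 6 ratios tested). The ratio of Col4a5 to Col4a6, chosen after the values were seen and therefore not tested, was 2.92, 2.81, 2.87 and 2.95 in the control and 2.50, 2.55, 2.59 and 2.61 in the melatonin libraries. All 4 melatonin ratios were below all 4 control ratios, and the range within each group was narrow.

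**Figure D2:**
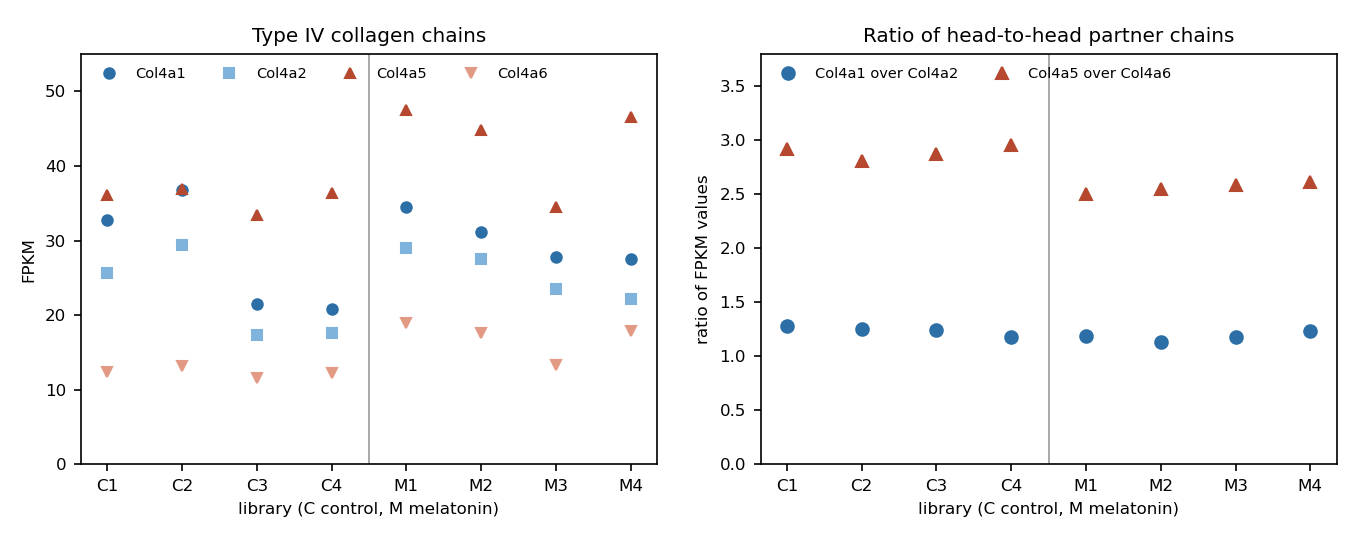
FPKM of 4 type IV collagen chains (left) and the ratio of the head-to-head partners (right) in each library, C for control and M for melatonin with the replicate number. Col4a5 and Col4a6 are highest in melatonin replicates 1, 2 and 4, and the ratio of Col4a5 to Col4a6 is between 2.81 and 2.95 in control libraries and between 2.50 and 2.61 in melatonin libraries.

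Among the laminins, the follicles carried 1 dominant chain of each kind. Lama1 made up 89.3 to 93.3% (control) and 92.3 to 94.3% (melatonin) of the summed alpha chain FPKM, Lamc1 90.4 to 93.9% (control) and 94.2 to 94.9% (melatonin) of the gamma chains, and Lamb2 65.0 to 73.6% (control) and 71.2 to 75.02% (melatonin) of the beta chains, with Lamb1 as nearly all of the rest. Basal laminae of bovine follicles are known to hold the same alpha, beta and gamma chains, as background from another species. The laminins had a median log2 fold change of -0.14, with 2 of 8 tested chains above 0.

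Lama1 (chromosome 17, 67697259 to 67822647 in mm10) was the most abundant member, at rank 312 of the 14738 genes tested by mean FPKM. It had 129, 92.1, 126 and 96.8 FPKM in the control and 135, 107, 132 and 100.4 FPKM in the melatonin libraries. The groups overlapped in part, with control replicates 1 and 3 and melatonin replicates 1 and 3 above the other 4 libraries (0.10 ± 0.14 SE on the log2 scale, limma adjusted p = 0.726). Leaving out single libraries gave 0.017 (without control replicate 2) to 0.18 (without control replicate 1 or melatonin replicate 4).

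Lamb2 had 54.3, 54.2, 63.7 and 59.2 FPKM in the control and 57.9, 60.9, 54.3 and 67.1 FPKM in the melatonin libraries, with overlapping groups (0.052 ± 0.079 SE on the log2 scale, limma adjusted p = 0.747). Lamb1 had 23.4, 29.1, 22.7 and 21.96 FPKM in the control and 23.1, 21.1, 21.9 and 22.3 FPKM in the melatonin libraries. Control replicate 2 was its highest library, and the other 7 lay between 21.1 and 23.4 FPKM (-0.12 ± 0.084 SE on the log2 scale, limma adjusted p = 0.456). Leaving out that library gave -0.036. Lamc1, the gamma chain shared by most laminins, had 28.01, 31.3, 26.3 and 29.6 FPKM in the control and 29.2, 27.2, 25.5 and 32.7 FPKM in the melatonin libraries, and its group means differed by less than the spread between replicates (-0.011 ± 0.083 SE on the log2 scale, limma adjusted p = 0.955).

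Lama4, an alpha chain of vessel walls and other mesenchymal basement membranes, was the laminin with the smallest p. It had 4.35, 4.51, 4.49 and 4.34 FPKM in the control and 3.99, 3.43, 4.09 and 3.73 FPKM in the melatonin libraries. All melatonin libraries were below all control libraries (-0.17 ± 0.062 SE on the log2 scale, limma adjusted p = 0.191). Of 7 endothelial markers 4 reached 1 FPKM on average, all 4 with a log2 fold change below 0, and the list summed to 8.46 to 12.96 FPKM (control) and 6.86 to 9.37 FPKM (melatonin). Their part in the Lama4 values was not tested.

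Lama5 had 2.65 ± 0.592 against 2.25 ± 0.125 FPKM, Lama2, the alpha chain of muscle basement membranes, 1.73 ± 0.744 against 1.34 ± 0.400 FPKM, and Lamc3 1.80 ± 0.618 against 1.34 ± 0.247 FPKM (SD, n = 4 each). Adjusted p was 0.524, 0.598 and 0.426, and control replicate 2 was the highest library for Lama2 and Lamc3. Lama3 and Lamb3 were below the filter. Control against melatonin levels were 0.810 ± 0.107 against 0.758 ± 0.133 FPKM for Lama3 and 0.101 ± 0.0385 against 0.0556 ± 0.0239 FPKM for Lamb3 (SD, n = 4 each).

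None of the basement membrane linkers passed the test. Hspg2, which encodes perlecan, had 22.6, 21.6, 20.6 and 19.3 FPKM in the control and 19.5, 19.5, 17.7 and 24.3 FPKM in the melatonin libraries. Agrn, which encodes the proteoglycan agrin, had 15.8, 18.1, 17.1 and 15.6 FPKM in the control and 15.6, 16.2, 15.2 and 18.8 FPKM in the melatonin libraries. For both, groups overlapped and the log2 fold change was near 0 (-0.058 ± 0.095 SE with adjusted p = 0.764, and -0.019 ± 0.077 SE with adjusted p = 0.910).

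The nidogens join laminin to type IV collagen. Nid1 had 6.56, 9.96, 4.70 and 5.21 FPKM in the control and 7.52, 4.44, 4.51 and 6.39 FPKM in the melatonin libraries. Nid2 had 6.62, 7.24, 6.51 and 7.32 FPKM in the control and 5.51, 6.86, 5.95 and 6.82 FPKM in the melatonin libraries. Nid1 varied 2.24-fold over the libraries with control replicate 2 and melatonin replicate 1 on top, whereas Nid2 varied 1.33-fold (-0.16 ± 0.23 SE on the log2 scale, limma adjusted p = 0.725 for Nid1 and -0.12 ± 0.077 SE on the log2 scale, limma adjusted p = 0.408 for Nid2). Leaving out control replicate 2 gave a Nid1 value of 0.032. The exons of Nid2 share 8.45% of their length with Rtraf on the other strand, and the use of strand in counting is not given in the sources used here, so Nid2 reads could include some from Rtraf.

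Collagens XVIII and XV are proteoglycan collagens of basement membrane zones, and a fragment of the former is endostatin. Col18a1 had 1.74, 2.65, 2.34 and 2.46 FPKM in the control and 3.20, 3.08, 3.16 and 2.71 FPKM in the melatonin libraries, with every melatonin library above every control library (0.30 ± 0.10 SE on the log2 scale, limma adjusted p = 0.181). The margin between melatonin replicate 4 and control replicate 2 was small. Col15a1 had 1.33 ± 0.584 against 1.31 ± 0.434 FPKM (SD, n = 4 each), with overlapping groups (-0.00046 ± 0.20 SE on the log2 scale, limma adjusted p = 0.999).

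Sparc and Fn1 are not structural chains of the basement membrane. Sparc, a secreted collagen-binding glycoprotein, was the second most abundant member. It had 108, 104, 94.5 and 84.5 FPKM in the control and 105, 96.6, 101 and 104 FPKM in the melatonin libraries, with overlapping groups (0.058 ± 0.078 SE on the log2 scale, limma adjusted p = 0.710). Fn1, fibronectin, had 9.34, 12.1, 18.9 and 7.20 FPKM in the control and 7.80, 8.08, 6.55 and 9.08 FPKM in the melatonin libraries. Control replicate 3 stood above the other 7 libraries, which ran from 6.55 to 12.1 FPKM (-0.47 ± 0.24 SE on the log2 scale, limma adjusted p = 0.334). Leaving out that library gave -0.23. Leukocyte markers were also highest in control replicate 3, where the 7 genes summed to 109.96 FPKM against 22.4, 50.5 and 27.5 FPKM in the other control libraries and 20.6 to 35.1 FPKM in the melatonin libraries. Of that list 5 of 7 reached 1 FPKM on average and the pan-leukocyte gene Ptprc did not, and their part in the Fn1 value was not tested.

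**Figure D3:**
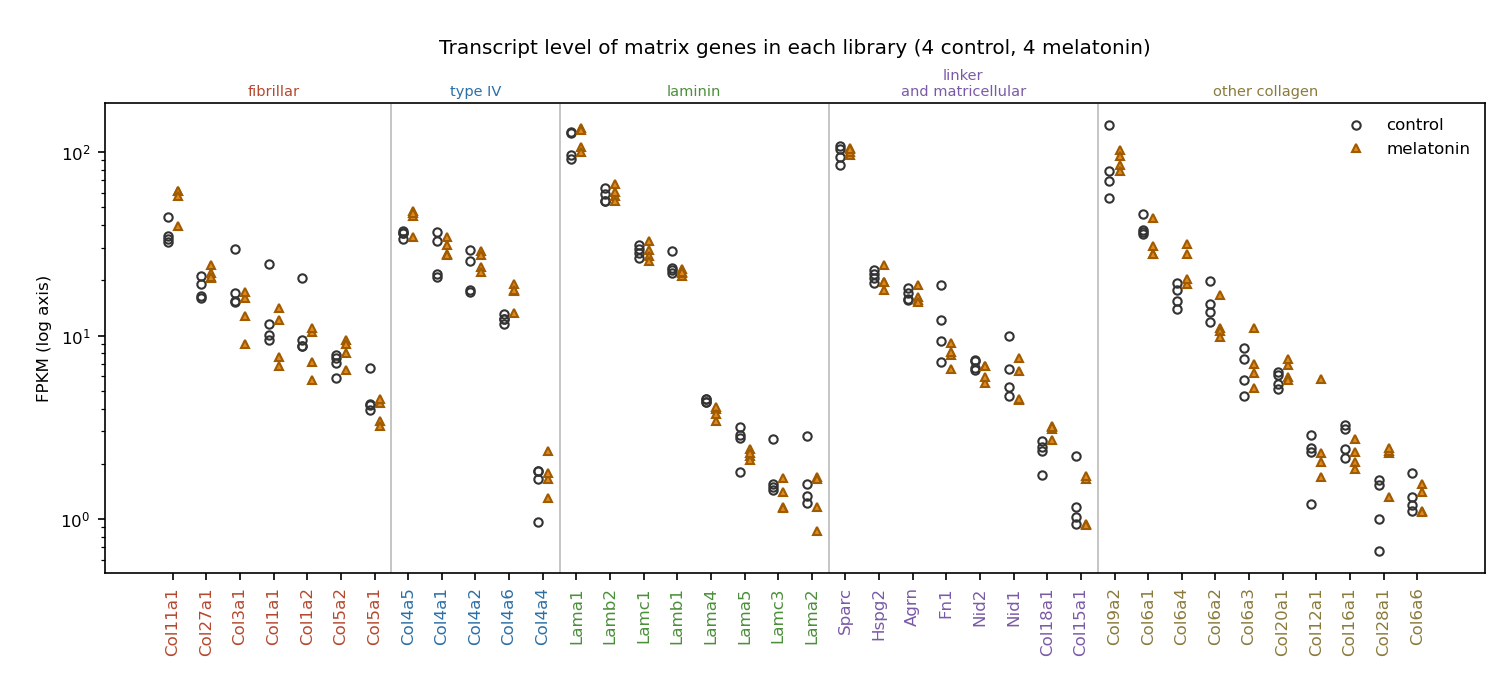
FPKM on a log axis of the 38 tested members in each library, with open circles for 4 control and triangles for 4 melatonin libraries, grouped by class. Lama1, Sparc and Col9a2 are the most abundant, and the groups separate without overlap in Col4a6, Col18a1 and Lama4.

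The tested fibrillar collagens had log2 fold changes of either sign, none past the threshold. Col11a1 and Col27a1, and also Col5a2, were higher with melatonin on average, whereas Col1a1, Col1a2, Col3a1 and Col5a1 were lower on average. The class median was -0.23, and -0.073 without control replicate 2. Of 7 tested, 2 had an unadjusted p under 0.05, both higher, or 28.6%, where 9.4% of all genes tested were higher and 19.1% were under it in either direction.

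Col11a1, a minor fibrillar chain that helps to nucleate fibrils and is best known from cartilage, was the most abundant fibrillar transcript. Col11a1 (chromosome 3, 114030540 to 114220718 in mm10) had 34.7, 32.1, 33.8 and 44.2 FPKM in the control and 60.998, 61.3, 39.7 and 57.6 FPKM in the melatonin libraries. Melatonin replicates 1, 2 and 4 were above every control library, and replicate 3 was below control replicate 4 (0.58 ± 0.15 SE on the log2 scale, limma adjusted p = 0.146). Its fold change was the largest in size among the 38 members tested, and it ran from 0.52 to 0.72 when single libraries were left out. Its usual partners in type XI collagen of cartilage were low, with Col11a2 at 0.743 ± 0.154 against 0.758 ± 0.127 FPKM and Col2a1 at 0.0631 ± 0.0143 against 0.0435 ± 0.0208 FPKM (SD, n = 4 each).

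Col27a1, another minor fibrillar chain, had 21.01, 19.04, 15.98 and 16.4 FPKM in the control and 24.2, 20.5, 21.9 and 20.9 FPKM in the melatonin libraries. Melatonin replicates 2 and 4 lay just under control replicate 1, and the other control libraries were below all melatonin libraries (0.26 ± 0.092 SE on the log2 scale, limma adjusted p = 0.191). Col5a2, which can pair with Col11a1 outside cartilage, averaged 7.09 ± 0.886 against 8.26 ± 1.30 FPKM with control given first (0.19 ± 0.12 SE on the log2 scale, limma adjusted p = 0.417).

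Type I and type III collagens are the bulk fibres of connective tissue. Col1a1 had 11.5, 24.5, 9.49 and 10.1 FPKM in the control and 12.2, 7.67, 6.86 and 14.1 FPKM in the melatonin libraries. Col1a2 had 8.72, 20.5, 8.72 and 9.50 FPKM in the control and 10.5, 7.15, 5.75 and 11.1 FPKM in the melatonin libraries. Col3a1 had 16.99, 29.5, 15.1 and 15.5 FPKM in the control and 16.04, 12.8, 9.04 and 17.3 FPKM in the melatonin libraries. In all 3, control replicate 2 was far above the other control libraries and melatonin replicate 3 was the lowest of all 8, with overlap between groups. The fits gave -0.36 ± 0.32 SE on the log2 scale, limma adjusted p = 0.552 for Col1a1, -0.37 ± 0.29 SE on the log2 scale, limma adjusted p = 0.507 for Col1a2 and -0.44 ± 0.25 SE on the log2 scale, limma adjusted p = 0.363 for Col3a1. Leaving out control replicate 2 gave -0.073, -0.10 and -0.23, so 1 library decides much of the size of these values.

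The sum of the 3 genes was 37.2, 74.5, 33.4 and 35.1 FPKM in the control and 38.7, 27.6, 21.6 and 42.4 FPKM in the melatonin libraries. The 7 stroma and fibroblast markers, all of which reached 1 FPKM on average, summed to 28.7, 36.3, 22.8 and 18.4 FPKM in the control and 28.2, 19.3, 14.7 and 27.2 FPKM in the melatonin libraries. Both sums were highest in control replicate 2 and lowest in melatonin replicate 3, and 6 of the 7 markers had their highest value in control replicate 2. The smooth muscle and pericyte sum was nearly equal in control replicate 2 (61.1 FPKM) and melatonin replicate 1 (60.7 FPKM). Its most abundant gene, Acta2, was highest in melatonin replicate 1. The endothelial sum (12.96 FPKM) was also highest in control replicate 2. The theca sum over 7 genes was not, at 81.7 FPKM against 80.2 to 92.005 FPKM (control) and 61.3 to 88.4 FPKM (melatonin). Of the theca genes, 1 (Enpep) was highest there. The part of stromal or other cell content in the type I and III values was not tested.

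**Figure D4:**
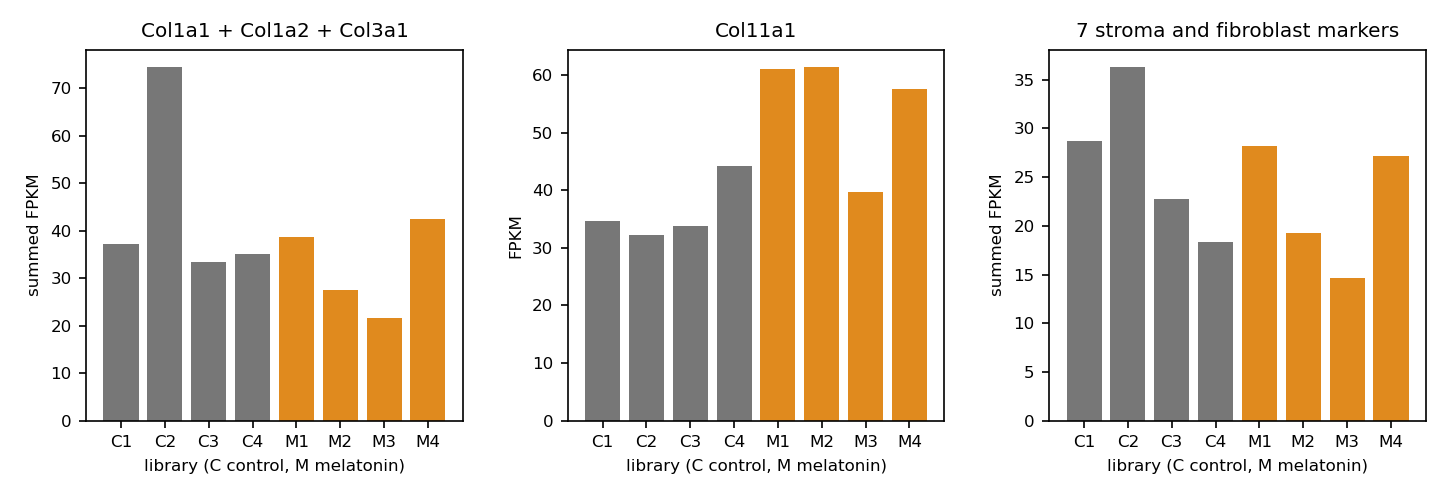
Summed FPKM of Col1a1, Col1a2 and Col3a1 (left), FPKM of Col11a1 (middle) and summed FPKM of 7 stroma and fibroblast markers (right) in each library, grey for control and orange for melatonin. Control replicate 2 is highest in the left and right panels, at 74.5 and 36.3, and lowest for Col11a1.

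Col5a1, a regulator of fibril width, averaged 4.77 ± 1.28 against 3.86 ± 0.630 FPKM (-0.23 ± 0.15 SE on the log2 scale, limma adjusted p = 0.439), again with control replicate 2 on top. Col24a1 and Col5a3 were below the filter at 0.675 ± 0.186 against 0.754 ± 0.102 FPKM and 0.0928 ± 0.0549 against 0.0669 ± 0.0349 FPKM (SD, n = 4 each).

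Among the other collagens, Col9a2 was the most abundant. It encodes 1 of the chains of type IX collagen, a fibril-associated collagen of cartilage, and had 78.8, 141, 56.4 and 69.4 FPKM in the control and 103, 94.6, 85.2 and 78.9 FPKM in the melatonin libraries. Control replicate 2 was the highest and control replicate 3 the lowest library, and the melatonin values lay between them (0.15 ± 0.25 SE on the log2 scale, limma adjusted p = 0.772). Its log2 fold change was 0.41 without control replicate 2 and -0.026 without control replicate 3. The other chains of the type IX trimer were low, with Col9a1 at 0.0430 ± 0.00844 against 0.0537 ± 0.0209 FPKM and Col9a3 at 0.622 ± 0.159 against 0.530 ± 0.0927 FPKM (SD, n = 4 each).

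Type VI collagen forms beaded filaments from Col6a1, Col6a2 and a larger chain encoded by Col6a3, Col6a4, Col6a5 or Col6a6. Col6a1 had 37.6, 46.2, 36.6 and 35.8 FPKM in the control and 30.7, 27.7, 27.9 and 43.7 FPKM in the melatonin libraries. Melatonin replicates 1 to 3 were below all control libraries and replicate 4 lay within them (-0.28 ± 0.15 SE on the log2 scale, limma adjusted p = 0.348). Col6a2 had 14.8, 19.9, 13.5 and 11.9 FPKM in the control and 11.1, 10.6, 9.80 and 16.7 FPKM in the melatonin libraries, with the same ordering of melatonin replicate 4 above replicates 1 to 3 (-0.30 ± 0.19 SE on the log2 scale, limma adjusted p = 0.406). Without melatonin replicate 4 the values were -0.42 for Col6a1 and -0.46 for Col6a2, and without control replicate 2 they were -0.19 and -0.17.

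The larger chains had log2 fold changes of either sign. Col6a4 had 15.4, 17.8, 13.95 and 19.4 FPKM in the control and 27.99, 19.1, 20.3 and 31.4 FPKM in the melatonin libraries. Melatonin replicates 1, 3 and 4 were above all control libraries and replicate 2 lay just under control replicate 4 (0.52 ± 0.17 SE on the log2 scale, limma adjusted p = 0.169). Col6a3 had 5.70, 8.58, 4.67 and 7.45 FPKM in the control and 6.26, 6.97, 5.19 and 11.1 FPKM in the melatonin libraries, with melatonin replicate 4 highest and wide overlap (0.12 ± 0.23 SE on the log2 scale, limma adjusted p = 0.796). Col6a6 had 1.35 ± 0.300 against 1.29 ± 0.226 FPKM (SD, n = 4 each), and Col6a5 was below the filter. Leaving out melatonin replicate 4 gave a log2 fold change of 0.40 for Col6a4 and -0.069 for Col6a3.

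Col28a1, a collagen that shares von Willebrand factor A domains with type VI, had 1.54, 1.005, 0.666 and 1.63 FPKM in the control and 2.30, 2.34, 1.32 and 2.42 FPKM in the melatonin libraries. It was higher in melatonin replicates 1, 2 and 4 than in every control library (0.49 ± 0.19 SE on the log2 scale, limma adjusted p = 0.215), on at least 72 fragments in each library. Col12a1, a fibril-associated collagen, had 2.21 ± 0.703 against 2.96 ± 1.93 FPKM, with 5.83 FPKM in melatonin replicate 1 and at most 2.86 FPKM elsewhere. Col20a1 and Col16a1 had 5.73 ± 0.568 against 6.51 ± 0.813 FPKM and 2.72 ± 0.536 against 2.24 ± 0.379 FPKM (SD, n = 4 each), with adjusted p of 0.390 and 0.432. The 15 other collagens below the filter included all transmembrane collagens (Col13a1, Col17a1, Col23a1 and Col25a1) and the short-chain collagens Col8a1, Col8a2 and Col10a1.

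Partner chains, and the nidogens Nid1 and Nid2, which are not chains of one trimer, were compared as ratios within a library. Such ratios do not depend on the scaling between libraries. For each of 6 ratios the groups were compared with a two-sided exact permutation test, whose 70 assignments allow a smallest p of 0.0286. None passed 0.05, but after adjustment over the 6 ratios a single ratio at that smallest p could not pass. Col1a1 over Col1a2 ran from 1.07 to 1.32 with an exact p of 0.943, although each gene varied 3.56-fold or more over the libraries. Type I collagen holds more Col1a1 than Col1a2 chains, and the transcripts were near equal per annotated length. The combined annotated exons span 6563 bases for Col1a1 and 12426 for Col1a2, and 4380 for Col6a1 and 8326 for Col6a2. The size of such ratios therefore depends on the annotation. Lama1 over Lamc1 ran from 2.94 to 5.19 (exact p = 0.629), and Lamb1 over Lamc1 from 0.683 to 0.928 (exact p = 0.257). Nid1 over Nid2 ran from 0.648 to 1.38 and Col6a1 over Col6a2 from 2.32 to 3.01, with overlapping groups in both. The p-values adjusted over the 6 ratios were 0.686 or higher.

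A few libraries led across the members. Control replicate 2 held the highest value of 17 of the 38 tested members (44.7%), where it did so for 10.6% of all genes tested. These 17 included Col1a1, Col1a2, Col3a1, Col5a1, Col4a1, Col4a2, Lama2, Lamc3, Nid1 and Col15a1. Melatonin replicate 3 held the lowest value of 13 members (34.2%), against 9.78% of all genes. Melatonin replicate 4 held the highest value of 8 members (21.1%, against 13.3%), among them Col6a4, Col6a3, Lamb2, Hspg2 and Agrn. In control replicate 2 the 7 oocyte markers were also all at their highest. Leaving out both control replicate 2 and melatonin replicate 4, a choice made after the values were seen, gave 7 members higher and 2 lower at an unadjusted p under 0.05 and 0 past the threshold.

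**Figure D5:**
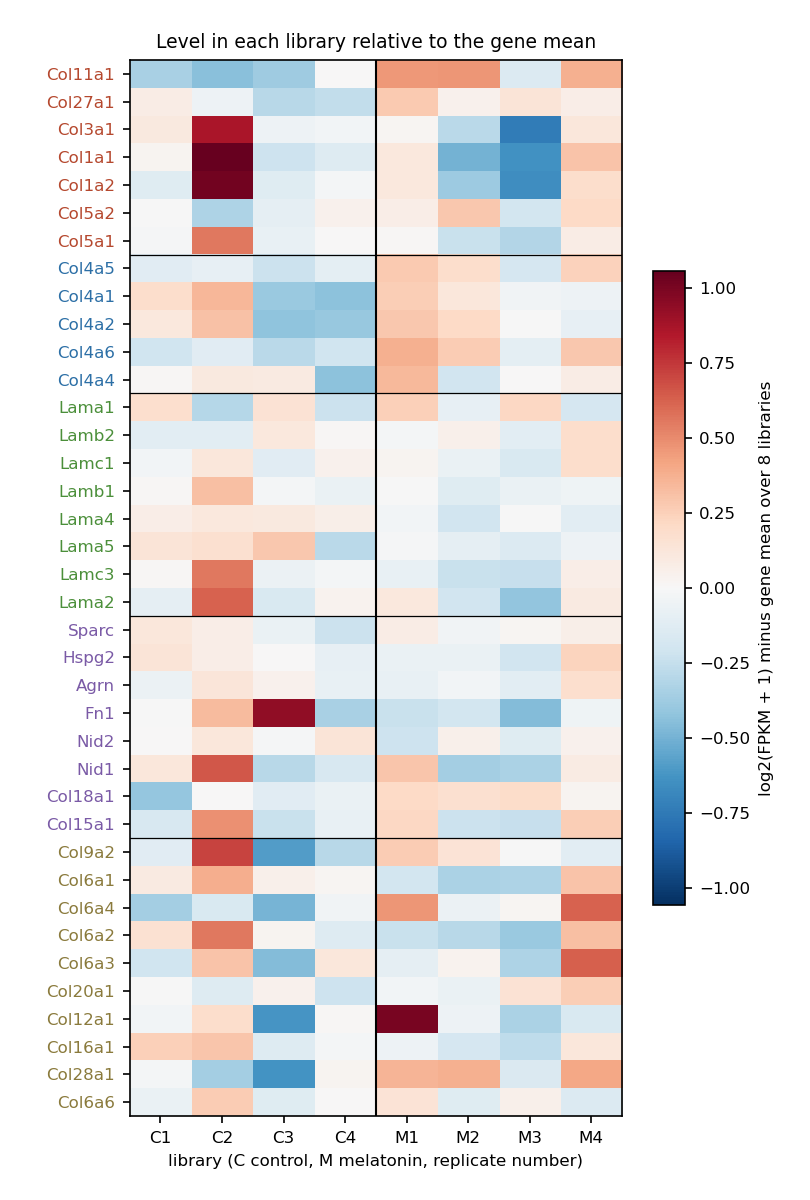
Log2(FPKM + 1) minus the gene mean over the 8 libraries for each tested member (rows, coloured by class) in each library (columns, C control and M melatonin). Control replicate 2 holds the highest value of 17 rows and melatonin replicate 3 the lowest value of 13.

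Genes that process collagen and genes that receive matrix signals give the setting of these chains. Of 29 collagen maturation genes 26 were tested, with 8 above 0 and 18 below 0 (median log2 fold change -0.072, against -0.0099 over all genes), 2 higher and 5 lower at an unadjusted p under 0.05 and 0 past the threshold. Over all genes tested, 9.4% were higher and 9.74% lower at that level, and 47.5% were above 0. Plod1, a lysyl hydroxylase, had 35.7, 35.6, 39.2 and 35.2 FPKM in the control and 26.9, 29.2, 29.2 and 33.3 FPKM in the melatonin libraries, all melatonin libraries being lower (-0.29 ± 0.069 SE on the log2 scale, limma adjusted p = 0.128). P3h2, a prolyl hydroxylase acting on type IV collagen, had 9.76, 11.2, 9.09 and 11.5 FPKM in the control and 12.3, 12.02, 12.8 and 12.3 FPKM in the melatonin libraries, all melatonin libraries being higher (0.24 ± 0.074 SE on the log2 scale, limma adjusted p = 0.164). These 2 had the smallest p in the list.

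Of 22 matrix receptors 20 were tested, with 13 above 0 and 7 below 0 (median 0.086), 2 higher and 0 lower at an unadjusted p under 0.05, against the same 9.4% and 9.74% of all genes, and 0 past the threshold. Itgb3, an integrin subunit that binds fibronectin and vitronectin, had 8.97, 7.97, 9.07 and 7.43 FPKM in the control and 10.96, 9.80, 8.93 and 11.99 FPKM in the melatonin libraries, and Ddr1, a collagen receptor kinase, had 43.9, 43.3, 42.9 and 51.4 FPKM in the control and 58.6, 48.2, 55.3 and 48.7 FPKM in the melatonin libraries. Groups overlapped in both (adjusted p = 0.181 and 0.231).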

How the data were processed

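RNA of type 7-8 follicles was sequenced from 8 samples, 4 control and 4 melatonin, grouped by the sample titles. Per the labels' protocols, Trizol was used to extract RNA and a NEBNext Ultra RNA kit to build the libraries. Per the submitters' processing notes, the authors used HISAT2 2.0.5 and the build mm10. Which counter and annotation the authors used, and whether strand was taken into account, is not given in the sources used here. Values deposited by the authors are FPKM per gene, per the file headers, so each value is relative to the other genes of its library. The series table and the 8 sample files differed in 0 values.

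The 14738 genes that averaged 1 FPKM or more were tested together with limma 3.58.1 in R 4.3.3 on log2(FPKM + 1) with an intensity trend, group as the single term and Benjamini-Hochberg adjustment. Fold changes on this scale understate those of low genes. Exon lengths came from GENCODE M21 (mm10), which matched 54409 identifiers. With them 98.8% of low values (up to 30 fragments) were whole fragments within 0.05, which gave the depths. Simulated data with 200 of 14738 genes changed were recovered at 61.2% for a log2 change of 0.5, 89.6% for 1 and 92.4% for 2 in the comparison of melatonin with control, with 7 false calls. The simulated noise was independent between genes, whereas genes of the real libraries varied together, so these rates need not hold for the real data.

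Per-library values are given for the 5 most abundant members of each class, for members with an unadjusted p under 0.05 (at most 10) and for chains in the ratios. Members, lists and tests were chosen with earlier results of these data known. Alternatives were quantile and median-ratio scaling, no filter, a filter at 5 FPKM, adding 0.1 before the log, array weights, a replicate block, removal of GC and length trends (splines with 5 degrees of freedom), limma-voom on recovered fragments (13714 genes) and leaving out each library. Python 3.11.15, pandas 2.3.3, numpy 2.4.6 and matplotlib 3.10.9 were used. RefSeq promoters matched 29 of the 38 tested members. Values of 1 member below the filter are not reported here.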

Additional observations from a re-analysis of the deposited data

Results flagged for a closer look

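In 4 of 78 groups of 4 libraries checked, 1 library lay far from the other 3, where chance flags about 1 in 20 groups. Control replicate 2 stood apart within the control group for the 3 bulk fibrillar collagens, with 29.5 FPKM of Col3a1, 24.5 FPKM of Col1a1 and 20.5 FPKM of Col1a2. These 3 flags are not independent of each other, since the genes varied together over the libraries. Melatonin replicate 3 stood apart within the melatonin group for Col28a1, with 1.32 FPKM against 2.30 to 2.42 FPKM in the other 3.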

How the results depend on the processing

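With 0 calls among the members in the fit reported and in every alternative run, the settings bear on sizes and directions only. Over all genes, 1 was called without a filter and 1 with the replicate block together with removal of GC and length trends; leaving out single libraries gave 0 to 1, with the 1 call without control replicate 1. Members higher at an unadjusted p under 0.05 numbered 4 to 8 (7 as reported), with 4 without control replicate 3 and 4 without melatonin replicate 1, and members lower 0 to 3 (1 as reported), with 3 without control replicate 4 or melatonin replicate 4 and 0 without melatonin replicate 2. The lower count was 0 with a filter of 5 FPKM, 2 with array weights and 2 without both control replicate 2 and melatonin replicate 4. Replicate numbers are shared by the groups, and whether they pair the samples is not stated in the labels. Same-numbered libraries had correlations of 0.00074, -0.10, 0.151 and 0.038 between their deviations from the group means. Of the 8 libraries, 3 correlated best with their own number, and such values cannot decide whether the samples are paired. With the replicate block 7 members were higher and 1 was lower. The log2 fold changes and class medians cannot change with this block, since each replicate number occurs once in each group.

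Class medians of log2 fold changes over the fits without 1 library were 0.11 to 0.29 for type IV, -0.30 to -0.073 for fibrillar, -0.17 to -0.033 for laminins, -0.12 to 0.026 for linkers and matricellular genes and -0.018 to 0.19 for other collagens. The laminin median was 0.020 with the filter of 5 FPKM, where fewer chains are tested. Type IV stayed above 0 and fibrillar below 0 in every setting run, but the fibrillar median of -0.23 was -0.027 with no filter and -0.087 with the filter of 5 FPKM.

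Of 28 members with values per library, 19 kept 1 direction in every setting, although the replicate block by itself could not change a direction. The reversed values were close to 0. Lamc1 was 0.038 with quantile normalization, 0.00021 with GC and length trends removed, with and without the replicate block, and 0.0036 with limma-voom. Agrn was 0.0064 with quantile normalization, and Lamb2 -0.032 without both leading libraries. Over the fits without 1 library the ranges were -0.074 to 0.041 for Lamc1, -0.082 to 0.020 for Agrn, -0.0026 to 0.10 for Lamb2, -0.012 to 0.20 for Col4a4, -0.069 to 0.25 for Col6a3, -0.026 to 0.41 for Col9a2, -0.15 to 0.0013 for Hspg2, -0.28 to 0.032 for Nid1 and -0.0088 to 0.11 for Sparc.

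Log2 ratios of partner chains, and of Nid1 over Nid2, passed no threshold in any setting. Without 1 library they ranged -0.029 to 0.075 for Col1a1 over Col1a2, -0.012 to 0.26 for Lama1 over Lamc1, -0.24 to 0.16 for Nid1 over Nid2 and -0.015 to 0.11 for Col6a1 over Col6a2. With the replicate block the smallest p possible is 0.125, so that test could pass no threshold.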
